A study of Homo sapiens with 32 samples.

Results

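The transcripts described here came from 10 genes of the mRNA export machinery: the THO subunit genes THOC1, THOC2, THOC3, THOC5, THOC6 and THOC7, and the adaptor genes ALYREF, POLDIP3, SARNP and FYTTD1. They were chosen by name, out of 64449 annotated genes off the mitochondrial chromosome, 34410 of which held at least 1 crosslink tag. A tag is 1 deduplicated cDNA at 1 crosslinked base, and all tags on the gene strand between the start and the end of the gene on GRCh37 were counted. The 10 gene bodies held 2143 of 2729065 tags, and THOC2 alone held 1144 of them (53.4%).

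THO is a multi-subunit complex that joins RNA while it is being transcribed, and together with an RNA helicase and adaptor proteins it forms TREX, which hands spliced mRNA to the export receptor Nxf1. THOC1, THOC2, THOC3, THOC5, THOC6 and THOC7 encode the subunits of THO, with THOC2 as its large scaffold. ALYREF, POLDIP3 (also called PDIP or SKAR), SARNP (CIP29) and FYTTD1 (UIF) encode adaptors or cofactors that bind the helicase, the RNA or Nxf1. The question here was how far RNAs that encode the export machinery were themselves contacted by 3 of its proteins.

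iCLIP maps protein contacts by UV crosslinking, immunoprecipitation and sequencing of cDNAs that stop at the crosslinked base. It was done with anti-FLAG antibody on stable FlpIn lines, which the labels give as HEK293T and the growth protocol as FlpIn-293, both established human embryonic kidney lines. They expressed Alyref-FLAG, Chtop-FLAG or Nxf1-FLAG, or carried the empty FLAG construct (Control), with 3 libraries of each. Tetracycline induced the tagged proteins over 48 h (10 ng/mL in the Alyref and Chtop lines, 5 ng/mL in the Nxf1 line, no dose stated for the Control), and the untagged proteins were still present. Depth ranged from 47052 to 631704 tags in Alyref and Chtop libraries, from 8134 to 179346 in Nxf1 libraries and from 7017 to 46628 in Control libraries, and the library numbered 1 was the shallowest of each group. By their titles, the libraries numbered 2 were run on HiSeq 5 and 6 and those numbered 1 and 3 on HiSeq 7 and 8, so that the number also marks the sequencing, equally in the 4 groups. Libraries numbered 1 and 2 each had a further run without a HiSeq number, and those numbered 3 had none. Fits on "the libraries of HiSeq 7 and 8 alone" are those with no library numbered 2. They keep the further run of the libraries numbered 1. At these depths a count of 0 allows up to 4.75 CPM (tags per 1000000 tags of the library) in Alyref 2 but up to 428 CPM in Control 1. Intervals and limits cover counting error only. A tag count depends on the amount of an RNA as well as on its contacts, and RNA levels were not measured in these libraries, so the 2 cannot be told apart. Each group was 1 stable line, and nothing says that the libraries came from separate cultures, so p-values measure only the spread between libraries. Of markers of other cell types, PTPRC, ALB, COL1A2 and CDH5 had 0 or 1 exon tag over the 12 libraries, HBB had 12 and COL1A1 had 37.

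The 3 crosslinked bases with the most tags lay in coding exons of THOC2, and the highest base of the other 9 genes lay in THOC5. These 4 are shown as the sites with the highest single-base counts, although few tags lay at any of them. The windows below come from the GRCh37 genome and are written 5′ to 3′ on the RNA strand, with the crosslinked base in capitals and T for U.
THOC2 exon 2, chrX:122846744-122846772, minus strand: ctattttattctagTttgcatttatgtcg
THOC2 exon 9, chrX:122805514-122805542, minus strand: atttagatgatcttTatgtacatgtaagt
THOC2 exon 10, chrX:122802052-122802080, minus strand: ttgtgttgtcttctGaaaaaatggatgag
THOC5 exon 4, chr22:29939447-29939475, minus strand: gaagcttaaccgatTagcccacatcaggt
The THOC2 exon 2 base was the first base of the exon and held 3 Alyref tags and 2 Chtop tags, spread over 4 libraries. The exon 9 base held 5 Alyref tags from 3 libraries, whereas all 5 tags at the exon 10 base came from Alyref 3. The THOC5 base held 1 Alyref tag and 2 Chtop tags, from 3 libraries. No base of the other 8 genes held more than 2 tags over the 9 Alyref, Chtop and Nxf1 libraries. T was the crosslinked base of 54.6% of the Alyref tags in the 10 genes (95% Wilson interval 51.7 to 57.4), of 58.0% of the Chtop tags (54.5 to 61.5), of 61.0% of the Nxf1 tags (52.8 to 68.7) and of 56.5% of the Control tags (42.2 to 69.8). Over all tags of the series the shares were 54.6%, 55.2%, 52.7% and 52.8%.

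Only THOC2 had enough tags for the test across all genes. With edgeR's quasi-likelihood test and its filter on low counts, 3864 genes were tested, and 1 of the 10 genes was among them; the other 9 failed because too few libraries reached the count minimum. Their values are given as descriptions, and beside them the fit without that filter, in which all 10 genes entered. An adjusted p is the Benjamini-Hochberg value over all features of a fit, and a call is an adjusted p under 0.05. Alyref, Chtop and Nxf1 were each set against the same 3 Control libraries, so these comparisons share their controls.

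**Figure D1:**
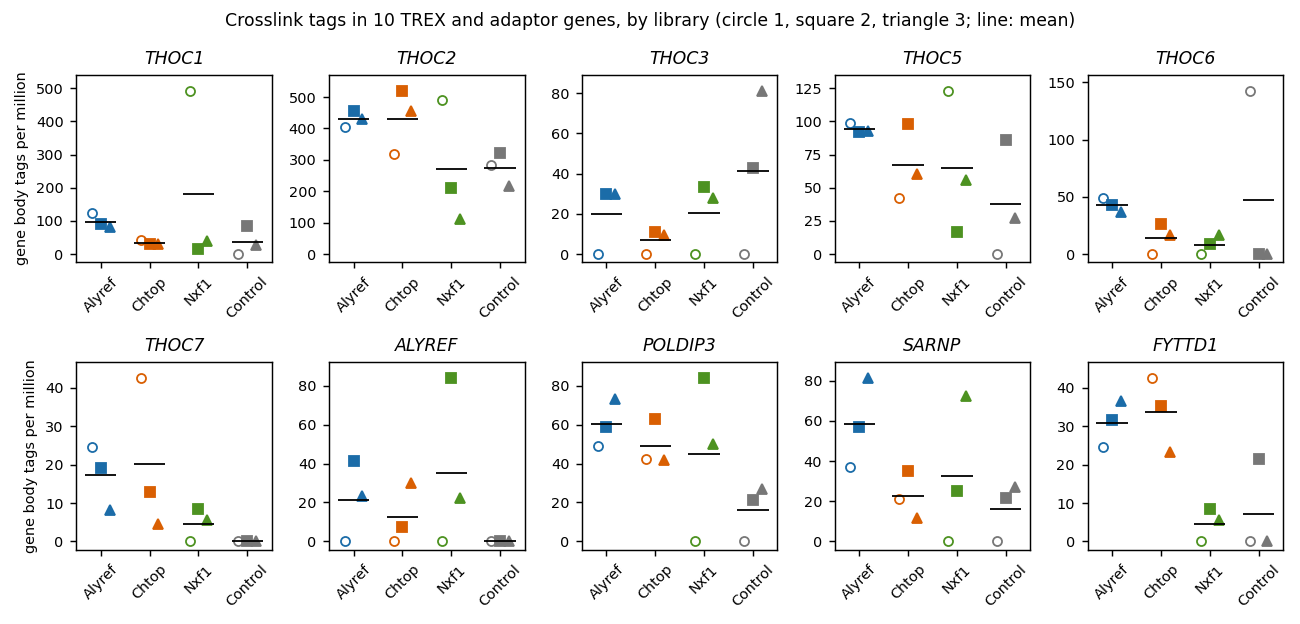
Gene body tags in CPM (vertical axis, each panel on its own linear scale) in each library of the 4 groups for the 10 genes, with open circles for replicate 1, squares for replicate 2, triangles for replicate 3 and a line for the mean. THOC2 stood above 100 CPM in all 12 libraries, and THOC1 lay between 81.2 and 123 CPM in Alyref but between 30.3 and 42.5 CPM in Chtop.

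THOC2 (chrX:122734412-122866906, minus strand, 39 exons in the canonical transcript) held the most tags of the 10 in each group, over the longest body (132495 nt). Per kb of body and over all libraries it had 8.63 tags, fewer than THOC6 (21.2) and ALYREF (18.9). In Alyref THOC2 had 406, 454 and 431 CPM for replicates 1, 2 and 3, a mean of 430.4 ± 24.2 (SD, n = 3). In Chtop it had 319, 519.6 and 454 CPM (431 ± 102). In Nxf1 it had 492, 209.7 and 112 CPM (271 ± 197), the first of these from 4 tags. In the Control it had 285, 322 and 216 CPM (274 ± 53.5), from 2, 15 and 8 tags. The Alyref and Chtop libraries overlapped each other. All Alyref libraries lay above all Control libraries, while the lowest Chtop library lay just under the highest Control. By summed tags THOC2 ranked at percentile 98.8 in Alyref, 98.5 in Chtop, 91.8 in Nxf1 and 96.6 in the Control among genes with at least 50 tags, a rank that also reflects its length.

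In gene body tags THOC2 was higher in Chtop than in Nxf1, by 1.21 ± 0.38 (log2 fold change ± SE, adjusted p = 0.0207, edgeR), with 23.8% of all genes tested called in this comparison. The call was lost without Alyref 2 (adjusted p = 0.05001), Chtop 2 (0.0516), Chtop 3 (0.0620), Nxf1 2 (0.0571) or Nxf1 3 (0.193), and with no filter on low counts (0.0972). On the libraries of HiSeq 7 and 8 alone, 2 per group, the value was 1.06 (adjusted p = 0.320; 0.0528% of genes called). It was not called in Alyref over Nxf1 (1.08 ± 0.37, adjusted p = 0.0921, edgeR; 4.22% of genes called), a comparison in which it was called when the 4 libraries numbered 1 were left out (1.32, adjusted p = 0.0140). It was also not called in Alyref over Control (0.61 ± 0.40; 0.0259% of genes called), Chtop over Control (0.74 ± 0.41; 13.5%), Nxf1 over Control (-0.48 ± 0.46; 0%) or Alyref over Chtop (-0.13 ± 0.31, 95% interval -0.74 to 0.48; 14.1%). In the Control comparisons its values stood beside medians over all genes of 0.23, 0.25 and 0.17, in that order. In Nxf1 over Control 292 genes had an unadjusted p under 0.05 by edgeR, THOC2 not among them, and DESeq2 did not call it either.

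With exons and the rest of the body counted apart, THOC2 was called in exons for Alyref and Chtop over both Nxf1 and the Control, and in no comparison for the rest of the body. Exon tags per kb of exon amounted to 50.5, 53.4 and 49.4 CPM per kb in Alyref, and to 34.2, 61.3 and 58.2 in Chtop. In Nxf1 they amounted to 87.8, 13.5 and 3.98, where the first rests on 4 tags, and in the Control to 25.4, 23.0 and 0. All Alyref and Chtop libraries thus lay above all Control libraries, while Nxf1 1 lay above every other library. The exon tags were higher in Alyref than in Control by 2.08 ± 0.72 (adjusted p = 0.0458, edgeR) and in Chtop than in Control by 2.25 ± 0.72 (adjusted p = 0.0104). They were higher in Alyref than in Nxf1 by 1.93 ± 0.62 (adjusted p = 0.0312) and in Chtop than in Nxf1 by 2.10 ± 0.63 (adjusted p = 0.00626). Such calls were common: 24.4%, 69.6%, 22.8% and 66% of the 1520 exon features tested were called in these 4 comparisons, and their median log2 fold changes were 1.88, 2.46, 1.00 and 1.63. THOC2 was not called in exons for Nxf1 over Control (0.15 ± 0.89; 0% called, 260 features at an unadjusted p under 0.05) or Alyref over Chtop (-0.17 ± 0.47, 95% interval -1.10 to 0.76; 16.3% called).

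The exon calls rested on few Control and Nxf1 tags. The call over Control in Alyref was lost without Alyref 2, Alyref 3, Chtop 2, Nxf1 3 or any 1 Control library (adjusted p 0.156, 0.0876, 0.0685, 0.0580, 0.0795, 0.163 and 0.244, in that order, where the last 3 belong to Control 1, 2 and 3), and that in Chtop without Control 3 (0.0849). Without Control 2 the log2 fold changes were 3.78 in Alyref and 3.93 in Chtop. DESeq2 (0.0954), relative log expression factors (0.0742) and no filter (0.128) also lost the Alyref call over Control. The call over Nxf1 in Alyref was lost without Alyref 2 (0.157), Alyref 3 (0.0839), Nxf1 2 (0.125) or Nxf1 3 (0.491), and that in Chtop without Nxf1 3 (0.0770) or with no filter (0.0738). DESeq2 (0.0974), relative log expression factors (0.0524), no filter (0.266) and merged exons (0.0569) lost the former. With the exons of all annotated transcripts merged, the values over Control fell to 0.99 (adjusted p = 0.249) in Alyref and 1.33 (0.0613) in Chtop. All 4 calls were lost on the libraries of HiSeq 7 and 8 alone. The values there were 3.49 and 3.42 over Control in Alyref and Chtop (adjusted p = 0.384 and 0.129, edgeR) and 1.62 and 1.54 over Nxf1 (0.780 and 0.294). No exon feature was called in that smaller set (0% of 720 in each comparison), with 132, 258, 84 and 203 features at an unadjusted p under 0.05, in the same order. HiSeq 5 and 6 held 1 library per group and gave no test of their own, and with the HiSeq number as a term all 4 calls held (adjusted p = 0.0422, 0.00959, 0.0371 and 0.00762).

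**Figure D2:**
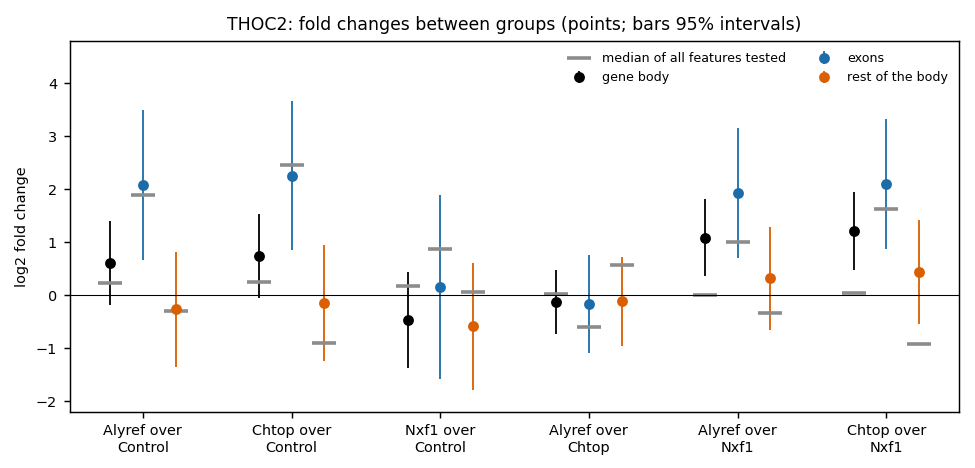
Log2 fold changes of THOC2 between groups (vertical axis) in gene body tags (black), exon tags (blue) and tags in the rest of the body (orange), with points for edgeR estimates, bars for 95% intervals and gray dashes for the median of all features of that class. The exon values over Control and over Nxf1 for Alyref and Chtop lie between 1.93 and 2.25, and the 6 intervals for the rest of the body include 0.

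Outside its exons THOC2 had 0.97, 1.22 and 1.21 CPM per kb in Alyref, 1.00, 1.39 and 1.01 in Chtop, 0, 1.06 and 0.70 in Nxf1, and 1.12, 1.52 and 1.70 in the Control. The Control mean was 1.45 ± 0.30, against 1.14 ± 0.14 in Alyref, 1.13 ± 0.22 in Chtop and 0.59 ± 0.54 in Nxf1. None of the 6 comparisons was called for this class (adjusted p from 0.449 to 0.859, edgeR). The shares of the 1715 features of this class that were called were 1.63%, 19.9% and 0% (60 features at an unadjusted p under 0.05) for Alyref, Chtop and Nxf1 over Control, 3.5% for Alyref over Chtop, 1.87% for Alyref over Nxf1 and 31.5% for Chtop over Nxf1. Tags fell in 32 of the 38 introns, and intron 38, which precedes the last exon, held 121 of the 407 tags outside exons. It held 45 Alyref, 57 Chtop, 12 Nxf1 and 7 Control tags, and of these 31, 49, 4 and 7 lay in exons of other annotated transcripts.

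The exon share of the THOC2 tags was 65.3% in Alyref (95% Wilson interval 61.4 to 69.1), 68.2% in Chtop (63.9 to 72.1), 34.7% in Nxf1 (22.9 to 48.7) and 28.0% in the Control (14.3 to 47.6). With the exons of all annotated transcripts merged, it was 73.4% in Alyref (69.7 to 76.9), 85.7% in Chtop (82.3 to 88.5), 44.9% in Nxf1 (31.9 to 58.7) and 60% in the Control (40.7 to 76.6). The Control interval then overlapped the Alyref and Nxf1 intervals. A model of exon against intron tags, which is free of the level of the gene, gave a higher ratio in Chtop than in Control, by 2.48 ± 0.93 (adjusted p = 0.0267, edgeR; 38.9% of 2858 genes called), and in Chtop than in Nxf1, by 1.82 ± 0.77 (adjusted p = 0.0411; 47.2% called). The medians over all genes tested were 3.13 and 2.21, above the THOC2 values. Both calls ended with the replicate number as a block, at 2.51 (adjusted p = 0.0513; 28.8% called) and 1.73 (adjusted p = 0.102; 32.3% called). They also ended on the libraries of HiSeq 7 and 8 alone, at 4.05 (adjusted p = 0.178; 0% called, 289 genes at an unadjusted p under 0.05) and 1.57 (adjusted p = 0.350; 1.02% called). The first was lost with merged exons (1.92, adjusted p = 0.0953) and without Chtop 3 (0.0630), Control 2 (0.107) or Control 3 (0.283), and without Control 2 its value was 4.11. The second was lost without any 1 Alyref library, Chtop 3, Nxf1 2 or Nxf1 3 (0.0560 to 0.384), with a value of 1.13 without Nxf1 3, and it was 2.80 with merged exons. The ratio was not called in Alyref over Control (2.39 ± 0.92, adjusted p = 0.0969; 3.46% called), in Alyref over Nxf1 (1.72 ± 0.76; 6.3%), in Nxf1 over Control (0.66 ± 1.07; 0%, 206 genes at an unadjusted p under 0.05) or in Alyref over Chtop (-0.10 ± 0.60, 95% interval -1.27 to 1.08; 3.01%). The Alyref over Nxf1 ratio was called without Nxf1 1 (2.28, adjusted p = 0.0367).

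Along the mature THOC2 RNA, tags reached 36 of 39 exons in Alyref, 35 in Chtop, 13 in Nxf1 and 6 in the Control. The Alyref tags leaned towards the 5′ end. Exons 1 to 10 held 149 of 379 Alyref exon tags and 66 of 334 Chtop exon tags, over 1047 nt. Exon 2, with 59 nt, held 22 Alyref and 9 Chtop tags, and exon 9, with 93 nt, held 22 and 10. Exons 29 to 38 were sparse in both, with 17 Alyref and 19 Chtop tags over 1297 nt, whereas the last exon, which holds most of the 3′ UTR, had 29 and 49.

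**Figure D3:**
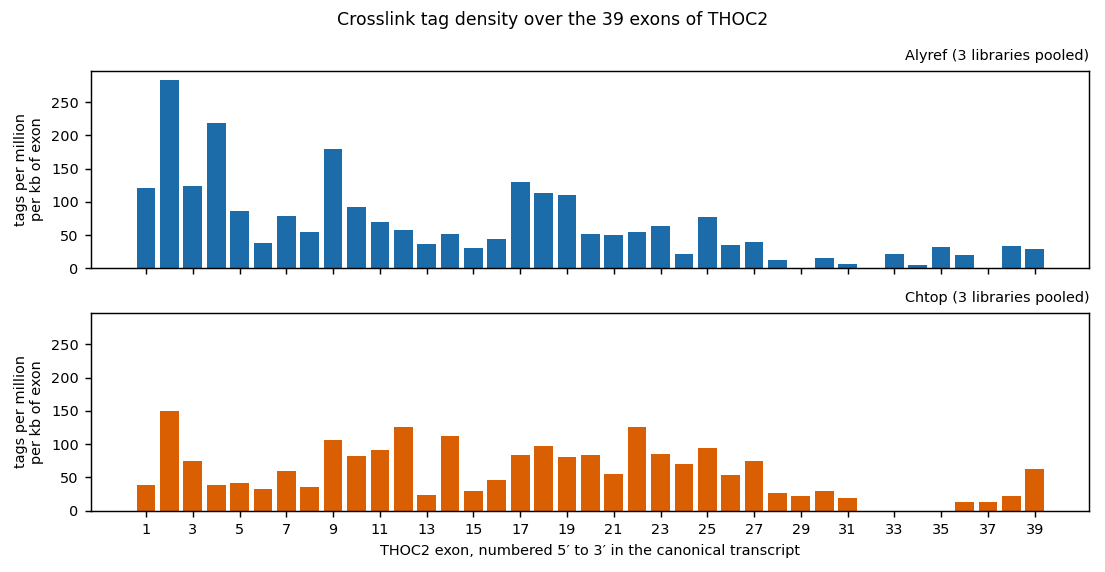
CPM per kb of exon (vertical axis, same scale in both panels) over the 39 exons of THOC2 from 5′ to 3′, with the 3 libraries of Alyref (top) and Chtop (bottom) pooled. The Alyref bars are highest at exons 2, 4 and 9, and the Chtop bars at exons 2, 12 and 22.

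The 39 exons were split into 3 blocks of 13. The first block (1458 nt) held 43.5%, 50.8% and 45.5% of the exon tags in the 3 Alyref libraries and 33.3%, 34.6% and 29.3% in the 3 Chtop libraries, without overlap. The last block (2384 nt) held 4.35%, 12.2% and 19.2% in Alyref and 22.2%, 21.1% and 30% in Chtop, again without overlap. The mean position of the exon tags, from 0% at the 5′ end to 100% at the 3′ end, was 32.2% ± 2.08 (SD, n = 3) in Alyref and 42.3% ± 2.71 in Chtop. The groups did not overlap, and a two-sided exact permutation test gave p = 0.1, the smallest that 3 libraries against 3 allow. This shift was that of most transcripts: over 5565 protein-coding genes with at least 20 exon tags in both, the median position was 40.1% in Alyref and 49.6% in Chtop, and in 80.7% of them the tags lay nearer to the 5′ end in Alyref. By the same measure on summed tags, the THOC2 difference of -10.8 percentage points stood at percentile 43.8 of those genes. These position measures were chosen after the values had been seen.

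The ratio of CDS to 3′ UTR tags of THOC2 was higher in Alyref than in Chtop, by 0.97 ± 0.43 (log2, adjusted p = 0.0477, edgeR), a comparison in which 49.8% of 880 genes tested were called. The median over these genes was 1.09, above the THOC2 value. There were 22, 176 and 143 CDS tags against 1, 10 and 19 3′ UTR tags in the Alyref libraries, and 8, 161 and 115 against 1, 23 and 25 in the Chtop libraries. The call was lost without Alyref 1 (adjusted p = 0.0737), Alyref 2 (0.447), Chtop 2 (0.0588), Chtop 3 (0.339) or Nxf1 1 (0.0504), and the value was 0.53 without Alyref 2 and 1.61 without Alyref 3. It was also lost when all libraries numbered 1 were left out (0.0683) or each position was counted once (0.0522), and on the libraries of HiSeq 7 and 8 alone, at 0.84 (0.459; 12.8% called). Over Nxf1 the ratio was not called in Alyref (1.29 ± 1.20; 3.98% called) or Chtop (0.32 ± 1.13; 2.39% called), and no comparison with the Control is given because THOC2 had 0 Control tags in its 3′ UTR. At internal exon-exon junctions of exons of at least 100 nt, the window from -75 to -24 nt held 60 of 177 Alyref tags within 100 nt of a THOC2 junction (33.9%, 95% Wilson interval 27.3 to 41.1) and 56 of 201 Chtop tags (27.9%, 22.1 to 34.4). These intervals overlap, and Nxf1 and the Control had only 10 and 6 tags there.

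THOC1 (chr18:214520-268050, minus strand) encodes the THO subunit also known as HPR1. It had 123, 90.2 and 81.2 CPM in the Alyref libraries (98.1 ± 22.0, SD, n = 3) and 42.5, 31.5 and 30.3 CPM in the Chtop libraries (34.8 ± 6.73), so that every Alyref library lay above every Chtop library. The first values of these groups rest on 10 and 2 tags. In Nxf1 it had 492, 16.8 and 39.03 CPM, the first from 4 tags, and in the Control 0, 85.8 and 27.04 CPM, from 0, 4 and 1 tags. In the fit without a filter THOC1 was 1.53 ± 0.45 higher (log2) in Alyref than in Chtop, with an adjusted p of 0.0694 by edgeR. It passed the threshold when the 4 libraries numbered 1 were left out (1.35, adjusted p = 0.0154) and when only the 6 Alyref and Chtop libraries were fitted (1.43, adjusted p = 0.0117). The exon share was 53.4% in Alyref (44.4 to 62.3) and 75% in Chtop (57.9 to 86.7), and the tags outside exons numbered 54 and 8. Of the exon tags, 1 of 62 in Alyref and 5 of 24 in Chtop lay in the 3′ UTR. The mean position was 35.5% in Alyref and 67.6% in Chtop, but it was 28.1%, 69.5% and 69.2% in the 3 Chtop libraries, where the first rests on 1 tag.

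THOC5 (chr22:29901868-29951205, minus strand), a metazoan THO subunit, had 98.4, 91.8 and 92.8 CPM in Alyref and 42.5, 98.4 and 60.5 CPM in Chtop, with overlap between the groups. The Nxf1 libraries had 123, 16.8 and 55.8 CPM, from 1, 2 and 10 tags, and the Control libraries 0, 85.8 and 27.04 CPM, from 0, 4 and 1. Exons held 62.3% of the Alyref tags (53.4 to 70.4) and 80.2% of the Chtop tags (70.3 to 87.5), but 0 of the 5 Control tags. Summed over a group, exon tags came to 57.7 CPM in Alyref and 64.0 CPM in Chtop, 1.74 and 1.93 times the 33.1 CPM that 0 tags in the Control group allow (3 counts over the group). These ratios leave out the counting error of the Alyref and Chtop tags, so they are no lower bounds. They also rest on Control 2: without it the limit is 68.2 CPM, above both levels. Without the filter the exon tags were called in Chtop over Control (adjusted p = 0.0348, edgeR), and with the libraries numbered 1 left out also in Alyref over Control (0.0118). In that smaller set THOC5 exons passed the filter only through Alyref and Chtop libraries, so a call over Control there is no independent support. The 3′ UTR share of the exon tags was 14.5% in Alyref (8.28 to 24.1) and 36.9% in Chtop (26.2 to 49.1). Of all THOC5 tags, 40.7% also lay inside another gene on this strand, and their source was not tested.

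THOC6 (chr16:3074028-3077756, plus strand), a WD-repeat subunit, had 49.2, 42.7 and 36.5 CPM in Alyref and 0, 25.98 and 16.3 in Chtop. The 2 groups did not overlap, but 0 tags in Chtop 1 allow up to 63.8 CPM, which is above every Alyref value. Exons held 38 of 53 Alyref tags and 14 of 21 Chtop tags. The single Control tag, in an intron, came to 143 CPM in the shallow Control 1. The THOC3 body (chr5:175344876-175461683, minus strand) and the THOC7 body (chr3:63819546-63849544, minus strand) had few tags, and both were mostly outside canonical exons. THOC3, a WD-repeat subunit, had 61 tags over 12 libraries, 8 of them in exons, and 51 of the other 53 lay outside the canonical transcript. Because 82.0% of its tags also lay in another annotated gene, they cannot be told apart from those of its neighbours. THOC7 had 32 tags, 6 of them in exons, and 0 in the Control.

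ALYREF (chr17:79845711-79849462, minus strand) encodes the adaptor that was tagged in 1 of the lines. It had 0, 41.2 and 23.2 CPM in Alyref, 0, 7.42 and 30.3 in Chtop, 0, 83.9 and 22.3 in Nxf1 and 0 in all 3 Control libraries. Its level was thus not set apart in the line that carries the Alyref-FLAG construct: the 3 tagged lines overlapped, and its CDS held 0, 10 and 3 tags in the Alyref libraries against 0, 2 and 9 in Chtop and 0, 4 and 4 in Nxf1. The Control limit of 33.1 CPM lay above the summed level of 30.4 CPM in Alyref, so by this limit no difference from the Control could be seen there. Nxf1, with 45.7 CPM, stood at 1.38 times this limit, a ratio that leaves out the counting error of its own 14 tags. Of the Nxf1 tags, 10 came from Nxf1 2. Without that library its level was 21.3 CPM, under the limit, and without Control 2 the limit was 68.2 CPM, above its level. Without the filter Nxf1 over Control had an unadjusted p of 0.00641 but an adjusted p of 0.937 (edgeR). In the same fit Alyref over Control had 0.0201 and 0.452, and Chtop over Control 0.0748 and 0.500. Exons held 27 of 40 Alyref tags, 15 of 17 Chtop tags and 14 of 14 Nxf1 tags.

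POLDIP3 (chr22:42979727-43010968, minus strand), whose product binds ALYREF and the exon junction complex, had 49.2, 58.6 and 72.9 CPM in Alyref and 42.5, 63.1 and 41.9 in Chtop, with overlap. The Nxf1 libraries had 0, 83.9 and 50.2 CPM and the Control libraries 0, 21.4 and 27.04. Exon tags summed to 42.5 CPM in Alyref and 40.4 CPM in Chtop, 1.29 and 1.22 times the limit that 0 Control exon tags allow. These ratios, too, leave out the counting error of the Alyref and Chtop tags. Without Control 2 the limit of 68.2 CPM lay above both. The exon tags were called over Control in Alyref (adjusted p = 0.0305, edgeR) and Chtop (0.0139) with the libraries numbered 1 left out, but not without the filter (0.199 and 0.0902). In that smaller set POLDIP3 exons passed the filter through Alyref and Chtop libraries and Nxf1 2, but through no Control library, so these calls are no independent support. The 3′ UTR share of the exon tags was 41.1% in Alyref (29.2 to 54.1) and 63.4% in Chtop (48.1 to 76.4). Of all POLDIP3 tags, 97.5% also lay in an overlapping annotated gene on this strand, so that they cannot be assigned to POLDIP3 alone.

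FYTTD1 (chr3:197464050-197514467, plus strand), the gene of the UIF adaptor, had 24.6, 31.7 and 36.5 CPM in Alyref and 42.5, 35.3 and 23.3 in Chtop, while Nxf1 had 0, 8.39 and 5.58 and the Control 0, 21.4 and 0. Its 3′ UTR, with 5687 nt of the 6733 nt of the transcript, held 77.8% of the Alyref exon tags (59.2 to 89.4) and 95.8% of the Chtop exon tags (79.8 to 99.3).

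SARNP (chr12:56146247-56211508, minus strand), the gene of a small helicase-binding cofactor, had 109 of its 131 tags outside exons, in 64364 nt against 898 nt of exon. Per kb its exons were denser, with mean values of 16.3 against 0.68 CPM per kb in Alyref and 5.35 against 0.28 in Chtop. Intron 9, with 28434 nt, held 61 of the tags outside exons, at 1.02 CPM per kb in the pooled Alyref libraries. SARNP had 36.9, 57.0 and 81.2 CPM in Alyref and 21.3, 35.3 and 11.6 CPM in Chtop, and each Alyref library lay above each Chtop library. Alyref 1 had only 3 of these tags and Chtop 1 only 1. The Nxf1 libraries had 0, 25.2 and 72.5 CPM and the Control libraries 0, 21.4 and 27.04. Without the filter Alyref exceeded Chtop by 1.45 ± 0.48 (log2), with an adjusted p of 0.122 by edgeR. It passed the threshold with the libraries numbered 1 left out (1.38, adjusted p = 0.0242) and with only the 6 libraries fitted (1.35, adjusted p = 0.0364). Other annotated genes on the strand overlap SARNP and hold 93.9% of its tags, so that these tags cannot be assigned to SARNP alone.

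Few of the 10 genes were called in the fits that held them all. Without the filter, 0 of 10 gene bodies were called in Alyref, Chtop and Nxf1 over Control, where 0.113%, 1.29% and 0.00291% of 34410 genes were, and 0 of 10 in Alyref over Chtop, Alyref over Nxf1 and Chtop over Nxf1, where 0.849%, 0.34% and 2.18% were. At an unadjusted p under 0.05 they numbered 4, 2, 1, 3, 4 and 3 in these 6 comparisons, in that order (edgeR), against 8.6%, 10.4%, 4.88%, 10.3%, 8.63% and 13.2% of all genes. The shares and medians over all genes in these fits cover any feature with at least 1 tag, and were not matched for tag count. The 10 genes held 32 to 1144 tags each, so an excess over such a share cannot be told apart from their depth. In exons 2 of 10 were called in Chtop over Control, THOC2 and THOC5, against 5.68% of 25651 exon features. In Alyref over Control, Nxf1 over Control, Alyref over Chtop, Alyref over Nxf1 and Chtop over Nxf1 0 of 10 were, against 0.0351%, 0%, 0.0624%, 0.172% and 2.88%, with 6, 2, 0, 3 and 3 of the 10 at an unadjusted p under 0.05, beside 16.6%, 5.62%, 11.5%, 12% and 19.4% of all exon features. Outside exons 0 of 10 were called in any comparison, against 0%, 0.235% and 0% for the 3 over Control and 0.00772%, 0.0231% and 0.224% for Alyref over Chtop, Alyref over Nxf1 and Chtop over Nxf1, and 1, 0, 0, 3, 1 and 1 had an unadjusted p under 0.05, beside 3.95%, 3.95%, 3.8%, 6.1%, 5.04% and 8.13% of all features. In gene bodies 9, 8 and 7 of the 10 log2 fold changes were above 0 in Alyref, Chtop and Nxf1 over Control. In Alyref over Chtop, Alyref over Nxf1 and Chtop over Nxf1 9, 8 and 5 were. The medians of the 10 were 2.02, 1.24, 0.47, 0.58, 1.05 and 0.15, in that order, beside 1.25, 0.85, 0.19, 0.04, 0.016 and 0 over all genes. The share of all genes above 0 was not counted, so these counts have no background.

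With the 4 libraries numbered 1 left out, 9 of the 10 gene bodies passed the filter. In Alyref over Chtop 2 of them were called, THOC1 and SARNP, both higher in Alyref, where 15.2% of genes were called. The same pair was called among 8 genes with only the 6 libraries of these groups, where 14% of genes were called. Of the 4 genes with exon tags tested in that smaller set, THOC1, THOC2, THOC5 and POLDIP3, 3 were called in Alyref over Control and 3 in Chtop over Control, where 37.1% and 68.2% of exon features were called. There were 2 exon calls in Alyref over Nxf1 (19.3% of exon features called) and 2 in Chtop over Nxf1 (52.4%). THOC5 and POLDIP3 exons had 0 Control tags. THOC5 exons passed the filter only through Alyref and Chtop libraries, POLDIP3 exons through these and Nxf1 2, and THOC1 exons only through Alyref libraries. Their calls over Control or Nxf1 therefore favor the groups that admitted them and are no independent support. Outside exons 2 of 5 were called in Alyref over Chtop, THOC1 and SARNP (4.87% of features called). SARNP passed the filter there through Alyref libraries and Nxf1 3, but through no Chtop library.

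**Figure D4:**
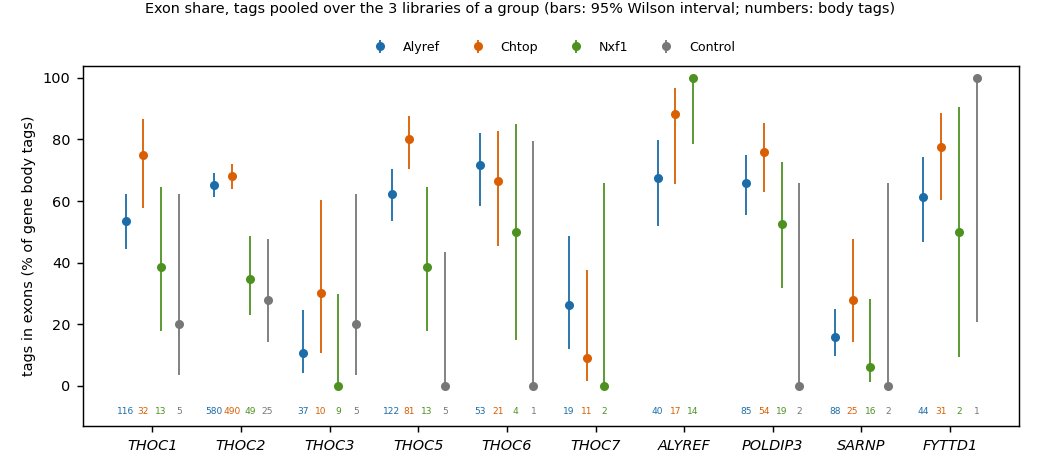
Exon share of the gene body tags (vertical axis, percent) of the 10 genes in each group, with tags of the 3 libraries pooled, bars for 95% Wilson intervals and small numbers for the body tags behind each point. THOC3, THOC7 and SARNP lie at or under 30% in Alyref and Chtop, and the other 7 genes lie above 50%.

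THOC3, THOC7 and SARNP had most of their tags outside exons in Alyref and Chtop, unlike the other 7 genes. Per kb their exons were still denser, with Alyref means of 1.35 against 0.15, 2.99 against 0.50 and 16.3 against 0.68 CPM per kb. Pooled over the genes, exons held 58.1% of the tags in Alyref (95% Wilson interval 55.3 to 60.9), 68.4% in Chtop (65.0 to 71.6), 39.01% in Nxf1 (31.3 to 47.2) and 21.7% in the Control (12.3 to 35.6). By library the shares ran from 55.1% to 65.2% in Alyref, from 57.7% to 76.8% in Chtop, from 26.03% to 100% in Nxf1 and from 6.67% to 33.3% in the Control, so that Alyref and Chtop overlapped and both lay above the Control. The 3′ UTR share of the body tags was 4.55%, 8.46% and 9.83% in the Alyref libraries and 15.4%, 15.0% and 22.9% in the Chtop libraries, without overlap. No test was made over these shares. Over all genes the CDS to 3′ UTR ratio in Alyref over Chtop had a median of 1.09 (log2), so a higher 3′ UTR share in Chtop was not particular to the 10. Among genes with at least 50 tags the median exon share was 51.9% in Alyref (9270 genes), 66.0% in Chtop, 33.3% in Nxf1 and 14.3% in the Control. The 4 groups thus stood in the same order over all genes as in the 10. SARNP (15.9%) and THOC3 (10.8%) stood at percentiles 9.54 and 5.85 in Alyref.

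**Figure D5:**
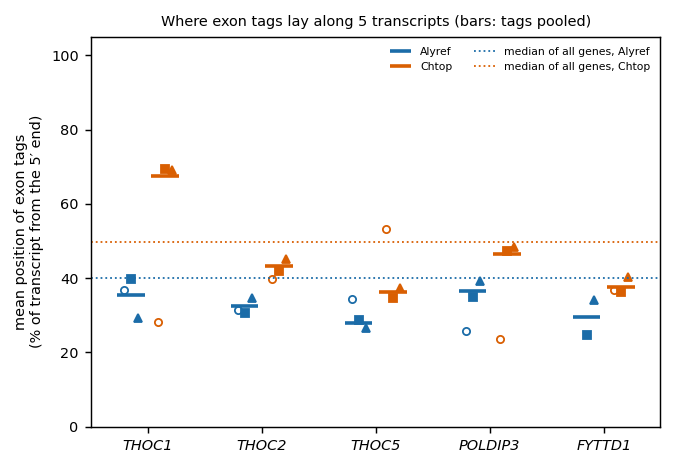
Mean position of the exon tags along the transcript (vertical axis, 0% at the 5′ end) for the 5 genes with at least 20 exon tags in Alyref and Chtop, with symbols for single libraries (open circle, replicate 1), bars for pooled tags and dotted lines for the medians over 5565 genes. The pooled Alyref bar lies nearer to the 5′ end than the Chtop bar in all 5, by 8.11 to 32.2 percentage points, as in 80.7% of the 5565 genes. Of the genes with fewer tags, not shown, THOC6 (51.4% in Alyref, 39.9% in Chtop) and ALYREF (59.0% and 54.3%) lay the other way. THOC3, THOC7 and SARNP lay the same way.

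Tags on the opposite strand, outside genes annotated there, were few. They came to between 0.03 and 2.37 tags per kb over the 12 libraries, against 0.52 to 21.2 tags per kb on the gene strand. ALYREF had the highest value, from 7 tags that were all in Alyref, and POLDIP3 had 8 in Alyref, 8 in Chtop and 4 in Nxf1.

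A list of 19 other export genes was counted in the same fits, and 12 of them passed the filter in gene bodies. In Chtop over Control 5 were higher and 0 lower, where 9.24% of all genes were higher, and in Chtop over Nxf1 5 were higher and 1 was lower, where 14.1% and 9.78% were. RBM15, whose product links the RNA methyltransferase to export, was 3.47 ± 0.54 (log2) higher in Chtop than in Control (adjusted p = 0.000625, edgeR). NCBP3 (a cap-binding protein, 2.32), ZC3H11A (a TREX-associated zinc-finger protein, 2.11) and MCM3AP (the TREX-2 scaffold, 1.96) were also higher there. In Alyref over Chtop 0 were higher and 3 lower, namely RBM15 (-2.19), CHTOP and NCBP3 (-0.96), where 8.9% of all genes were lower. In Alyref over Nxf1 SRSF7, a splicing and export adaptor, was higher (1.68) and NXF1 lower, where 2.64% and 1.58% of all genes were, and in Alyref over Control and Nxf1 over Control 0 of 12 were called. In exons, with 10 tested, 3, 6 and 0 were higher in Alyref, Chtop and Nxf1 over Control, where 23.6%, 67% and 0% of all exon features were. In Alyref over Chtop 2 were lower (15.1% of exon features), in Alyref over Nxf1 3 were higher (20.7%), and in Chtop over Nxf1 5 were higher (61.1%) and 1 was lower (4.93%). As a check of the labels, CHTOP was higher in Chtop than in Alyref (Alyref over Chtop -1.45, adjusted p = 0.00255) and NXF1 was lower in Chtop than in Nxf1 (-1.91, adjusted p = 0.00102), the lines in which these are tagged. These are gene body tags. The CDS held 22 of 135 CHTOP tags in Chtop 2 and 27 of 125 in Chtop 3. For NXF1 it held 24 of 39 in Nxf1 2 and 18 of 32 in Nxf1 3. How far these values reflect the constructs was not tested. The check was not met throughout: CHTOP was not called in Chtop over Nxf1 (0.99, adjusted p = 0.0555), NXF1 was not called in Nxf1 over Control (2.55, adjusted p = 0.297), and ALYREF in the fit without the filter was -0.66 in Alyref over Nxf1 (adjusted p = 0.833) and 0.76 in Alyref over Chtop (0.626).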

How the data were processed

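The authors removed phiX reads with Bowtie 1.1.2, took the random barcodes with UMI-tools 0.5.3, trimmed with Reaper, aligned uniquely to hg19 with STAR 2.4.2a, merged the lane runs of a library and collapsed duplicates by barcode. The deposited counts are deduplicated tags per crosslinked base, taken as the most 5′ deletion of a read or the base before it. The 32 lane runs form 12 libraries; 4 pooled files were not used. Tags were assigned with GENCODE release 44 on GRCh37. Exons, CDS and UTRs are those of the canonical transcript, and "rest of the body" or "intron" is everything else within the gene; a tag in several genes counts for each. Counts were fitted with edgeR 4.0.16 (TMM, filterByExpr, quasi-likelihood test, all libraries in 1 fit, R 4.3.3). The exon against intron and CDS against 3′ UTR models had a coefficient per library and needed at least 10 tags in each class. The fits were tested on simulated data, where the exon against intron model recovered far fewer of the changes than the gene body fit, so that ratios not called are no sign of likeness. Same-numbered libraries share HiSeq numbers by their titles; 5 of 18 same-numbered pairs had deviations correlated over 0.1 (-0.17 to 0.326), and 8 of 12 libraries correlated best with their own number. DESeq2 1.42.0 was an alternative. The 10 genes were all named. Of a list of 19 export genes, at most 4 per comparison were named, by smallest adjusted p. Genes, lists and tests were chosen with earlier results of these data known.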

Additional observations from a re-analysis of the deposited data

Results flagged for a closer look

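Of the results on these genes, 3 ratios within THOC2 differed between groups by a test of the difference itself. The ratio of exon to intron tags was higher in Chtop than in Control, by 2.48 on the log2 scale, and higher in Chtop than in Nxf1, by 1.82. The ratio of CDS to 3′ UTR tags was higher in Alyref than in Chtop, by 0.97. The medians over all genes tested were 3.13, 2.21 and 1.09, in that order, so THOC2 stood under the median in each. All 3 fell in comparisons with many calls over all genes, and each was lost in some fits that left out 1 library and on the libraries of HiSeq 7 and 8 alone. With the replicate number as a block the first 2 were 2.51 (adjusted p = 0.0513, edgeR) and 1.73 (0.102), no longer called.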

How the results depend on the processing

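The counts of called genes kept within 1.5 times their value in 495 of 574 alternatives, and the THOC2 log2 fold changes kept their direction in 542 of 574. A reported count of 0 that stayed 0 counts as kept, so the first total says little about the calls. The THOC2 call in gene bodies (Chtop over Nxf1) held in 15 of 22 alternatives. Its exon calls over Control held in 11 of 23 (Alyref) and 19 of 22 (Chtop). Over Nxf1 they held in 14 of 23 and 20 of 23. The exon to intron calls held in 14 of 20 (Chtop over Control) and 11 of 20 (Chtop over Nxf1). The CDS to 3′ UTR call held in 11 of 19. The number of genes called, out of those that passed the filter, moved as follows. In gene bodies it was 2 in Alyref over Chtop with only the 2 groups and 2 with no library numbered 1 (reported: 0), 1 in Alyref over Nxf1 with no library numbered 1 (0) and 0 in Chtop over Nxf1 with no filter (1). In exons it was 0 in Alyref over Control and in Alyref over Nxf1 with relative log expression factors, no filter, DESeq2 or merged exons, and 3 and 2 with no library numbered 1 (1 each). It was 2 in Chtop over Control with no filter, 3 with no library numbered 1 and 0 with merged exons (1), and in Chtop over Nxf1 0 with no filter and 2 with no library numbered 1 (1). Outside exons it was 1 in Alyref over Chtop with only the 2 groups and 2 with no library numbered 1 (0). For the exon to intron ratio it was 0 in Chtop over Control with merged exons and 2 with no library numbered 1 (1), and 3 in Chtop over Nxf1 with no library numbered 1 (1). For the CDS to 3′ UTR ratio in Alyref over Chtop it was 0 with each position counted once and 0 with no library numbered 1 (1). With no library numbered 2 all 8 reported calls of THOC2 went to 0, and with the HiSeq number as a block only that of the exon to intron ratio in Chtop over Nxf1 did (1.77, adjusted p = 0.0746, edgeR). Fewer libraries or no filter change which genes are tested; otherwise the cause was not tested. The share of tags outside exons, as a mean over the 3 Alyref libraries, was 46.1% without THOC2 and 39.9% with it. Leaving out 1 library moved these counts between 0 and 1, or between 0 and 2 for the exon to intron ratio in Chtop over Control and Chtop over Nxf1. For gene bodies, Alyref over Chtop, the 1 was THOC1, which then passed the filter.

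THOC2 log2 fold changes, none of them called, turned direction as follows. With merged exons they were -0.68 in exons for Nxf1 over Control, 0.12 and 0.011 outside exons for Alyref and Nxf1 over Control, 0.70 for Alyref over Chtop, -0.59 for Chtop over Nxf1, and -0.88 for the exon to intron ratio in Nxf1 over Control. Outside exons they were 0.50 and 0.57 in Alyref and Chtop over Control with no filter, 0.39 and 0.57 with no library numbered 1, and 0.15 in Chtop over Control with relative log expression factors. These factors moved the median of all features of that fit by 0.35 in Chtop over Control, 0.52 in Chtop over Nxf1 and -0.41 in Alyref over Chtop. The CDS to 3′ UTR ratio was -0.078 and -1.01 for Alyref and Chtop over Nxf1 with no library numbered 1. With no library numbered 2, Alyref over Chtop was 0.017 in gene bodies and 0.079 in exons. Leaving out 1 library gave ranges of -0.38 to 1.88 (exons, Nxf1 over Control), -0.51 to 0.36 and -0.34 to 0.50 (outside exons, Alyref and Chtop over Control), -0.28 to 2.29 and -0.20 to 0.072 (exon to intron ratio, Nxf1 over Control and Alyref over Chtop), and -0.029 to 2.75 and -0.997 to 1.78 (CDS to 3′ UTR ratio, Alyref and Chtop over Nxf1).

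With the replicate number as a block, the exon to intron ratio of THOC2 was 2.51 in Chtop over Control (adjusted p = 0.0513, edgeR) and 1.73 in Chtop over Nxf1 (0.102), so that 0 genes were called in each, and no other call changed. The fits of ratios and of exon and intron tags with no library numbered 1, and all fits with no library numbered 2 or with a HiSeq block, were chosen after seeing the data. Depth limits the Control and Nxf1 comparisons most, with 46 and 141 tags in the 10 genes.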
